A study of Mus musculus with 12 samples.

Results

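Collagens are the structural proteins of the extracellular matrix, and their 44 genes were followed across the hearts of mice that carry an expanded GGC repeat of NOTCH2NLC. The genes were taken by name alone: each locus whose symbol has the form Col, a number, the letter a and a number was a member, which gave 44 of the 25171 loci in the count table. They were sorted into 11 fibrillar, 9 network, 9 FACIT (fibril-associated collagens with interrupted triple helices), 6 beaded filament, 2 multiplexin and 4 transmembrane genes and 3 others. The study asked what the expanded repeat does to the heart, in one line where the transgene is switched on in all tissues and in one where it is switched on in cardiomyocytes. RNA of 12 hearts was sequenced, 3 in each of 4 groups.

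All 12 mice carried the same allele, a loxP-stop-loxP-NOTCH2NLC-(GGC)98 cassette at Rosa26, which is silent until Cre removes the stop. EIIa-tg mice also carried EIIa-Cre (E2a-cre in the labels), which acts in the early embryo and so reaches nearly all cells, and EIIa-ctl mice were littermates without that Cre; both were taken at P30. Myh6-tg mice are labelled as carrying Myh6-creERT2, a Cre that works in cardiomyocytes once tamoxifen is given, and received 3 injections of 75 mg/kg tamoxifen in corn oil on alternate days from P60. Myh6-ctl mice have the same genotype label and received corn oil only, and their hearts and those of Myh6-tg mice were taken at P90. The groups of the 2 lines differ in age, Cre and injection, and the genotype labels of EIIa-tg replicates 2 and 3 read e3a and e4a in place of e2a, so these hearts were grouped by their titles. NOTCH2NLC transcript was not analysed here.

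Each collagen is built of 3 chains wound into a triple helix, which needs glycine at the start of every Gly-X-Y triplet. Fibrillar collagens (types I, III, V and XI among others) have 1 long unbroken helix and pack into the cable-like fibrils that give the heart wall its tensile strength. Network collagens form sheets, type IV in the basement membrane around cardiomyocytes and capillaries and type VIII in short hexagonal nets, while FACITs sit on the surface of fibrils, type VI makes beaded microfilaments next to cells, and the multiplexins XV and XVIII lie at basement membranes. In the heart, fibroblasts make most of the fibrillar collagen, endothelial and mural cells make much of type IV, and growth of the fibrillar matrix is the hallmark of cardiac fibrosis.

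The repeat is visible in the genes themselves, since many collagen exons are 54 bases long and encode 6 whole triplets. By the GENCODE annotation of GRCm38, 469 of the 1921 internal coding exons of the 44 genes (24.4%) were 54 bases long, against 698 of 156744 (0.445%) in 21738 other protein-coding genes. The share was 48.6% in the fibrillar genes (305 of 627 exons), 26.3% in the FACITs and 4.2% in the network genes. The exons below belong to 7 genes whose transcripts carry the results that follow. Each is a 54-base exon of 6 triplets, read in frame from GRCm38, 5′ to 3′ on the coding strand. Capitals mark the glycine codon that opens each triplet, and other glycine codons are left in lower case.
Col1a1, exon 8, chr11:94939904-94939957, plus strand: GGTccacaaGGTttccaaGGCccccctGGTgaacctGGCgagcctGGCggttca
Col1a2, exon 8, chr6:4515481-4515534, plus strand: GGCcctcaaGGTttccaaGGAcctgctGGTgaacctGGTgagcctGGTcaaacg
Col3a1, exon 6, chr1:45325360-45325413, plus strand: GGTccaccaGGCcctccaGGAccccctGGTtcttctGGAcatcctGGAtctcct
Col5a2, exon 6, chr1:45434892-45434945, minus strand: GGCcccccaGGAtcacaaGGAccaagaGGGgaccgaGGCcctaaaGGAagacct
Col11a1, exon 15, chr3:114108281-114108334, plus strand: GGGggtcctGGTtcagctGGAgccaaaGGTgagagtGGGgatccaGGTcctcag
Col4a1, exon 7, chr8:11245211-11245264, minus strand: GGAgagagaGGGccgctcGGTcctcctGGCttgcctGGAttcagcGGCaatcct
Col12a1, exon 55, chr9:79614349-79614402, minus strand: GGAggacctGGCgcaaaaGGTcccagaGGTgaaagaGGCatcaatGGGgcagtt

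The classes also differed in how long the unbroken run of triplets was. The longest run per gene held 216 to 344 triplets in the fibrillar genes, 39 to 66 in the network genes and 32 to 113 in the FACITs. Several members are neighbours. Col4a1 and Col4a2 lie head to head on chromosome 8 with start sites 21 bases apart and share 22 bases, and Col4a3 and Col4a4 lie head to head with start sites 72 bases apart. Col3a1 and Col5a2 lie tail to tail on chromosome 1, 24614 bases apart. The kit used does not mark strand, so reads from the shared bases of Col4a1 and Col4a2 cannot be assigned to either gene.

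**Figure D1:**
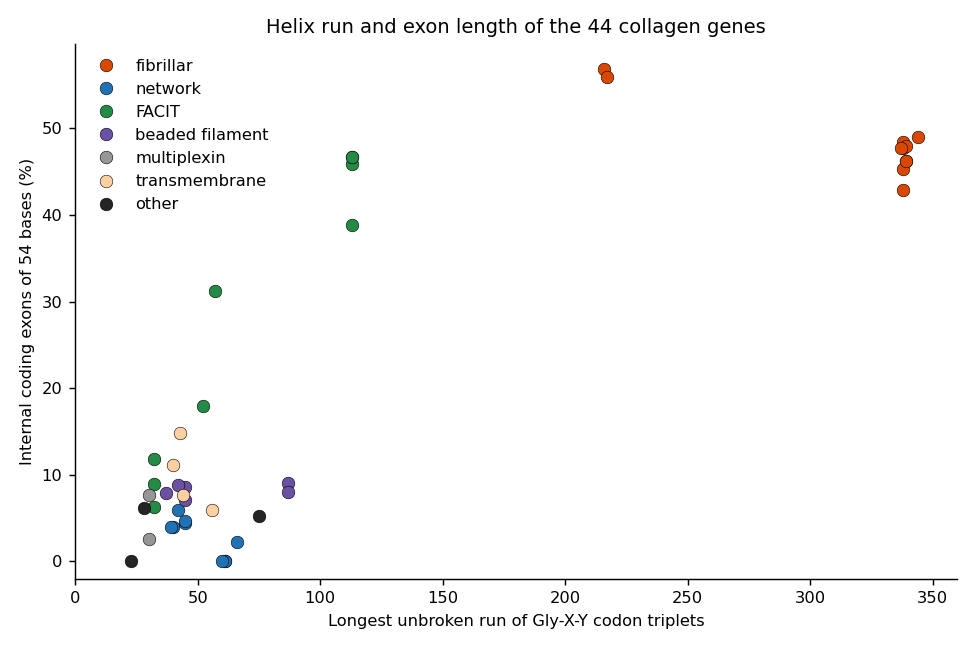
Helix length and exon structure of the 44 collagen genes by class, with the longest unbroken run of Gly-X-Y codon triplets on the horizontal axis and the share of internal coding exons that are 54 bases long (%) on the vertical axis. Each point is 1 gene, coloured by class. The fibrillar genes hold 216 to 344 triplets in 1 run, and no network gene holds more than 66.

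Between 38343106 and 50969834 counts were assigned per heart, so that 3 counts correspond to 0.0568 to 0.0815 CPM (counts scaled to library size, with the TMM factors of edgeR). Libraries differed beyond the collagens. Mitochondrially encoded genes took 15.5 to 18.6% of the counts in Myh6-tg hearts and 28.5 to 38.3% in the other 9 hearts. Esr1, the gene whose ligand-binding part the creERT2 fusion carries, stood at 1031 to 2331 CPM in Myh6-ctl hearts and at 1.00 to 2.52 CPM in Myh6-tg hearts, although the labels give both groups the creERT2 allele. The EIIa hearts, which lack that allele, stood at 0.408 to 1.23 CPM. Tamoxifen, the transgene and a Cre allele seen by Esr1 in the controls alone thus cannot be told apart in the Myh6 line. Replicate 1 of each group held 4224 to 7307 counts on Y-linked genes and every other heart at most 2. By these counts replicate 1 was the only male heart of each group, so sex cannot be told apart from other traits of that heart. Within Myh6-tg, replicate 1 stood apart from the other 2 hearts in many collagens, so results that change without it are given both ways; the labels name the tissue as heart while the RNA protocol speaks of brain, and cardiomyocyte markers summed to at least 10965 CPM in every heart.

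A few genes made up most of the collagen transcripts. By FPKM (fragments scaled to transcript length and library size, the only scale on which levels of different genes are compared here), the 4 most abundant members held 59.3% of the summed collagen FPKM over the 12 hearts and the 10 most abundant 90.7%. The order of the mean FPKM was Col3a1 (130.1), Col4a1 (112), Col1a2 (94.5), Col4a2 (92.8), Col1a1 (58.6), Col6a2 (44.8), Col6a1 (42.9), Col5a2 (27.3), Col8a1 (27.0) and Col15a1 (25.7). At the other end, Col9a1, a chain of the cartilage FACIT type IX, and Col19a1 were listed at 0 in all 12 hearts, which at this depth allows up to 3 counts per heart. In all, 30 members had more than 3 counts in every heart and 14 did not.

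Collagens took a larger share of the transcriptome in Myh6-tg hearts than in the rest. They held 0.512, 1.01 and 1.15% of all counts in the 3 Myh6-tg hearts (0.888 ± 0.334%, mean ± SD, n = 3 here and throughout) against 0.227 ± 0.0538% in their controls. In the ubiquitous line the share was 0.321 ± 0.0982% in EIIa-tg and 0.248 ± 0.0652% in EIIa-ctl. Shares of all counts also depend on the mitochondrial counts, which were lower in Myh6-tg. With the TMM factors the contrast was smaller, at 7295 ± 2254 CPM in Myh6-tg and 2485 ± 405 CPM in Myh6-ctl. The summed collagen CPM of the ubiquitous line was 3094 ± 802 in EIIa-tg and 2736 ± 607 in EIIa-ctl. Every Myh6-tg heart lay above every other heart, while the EIIa-tg and EIIa-ctl hearts overlapped. With 3 hearts against 3, an exact permutation test cannot give a two-sided p below 0.1, so such sums are described without a test. In whole tissue, more collagen-making cells and more collagen RNA per cell cannot be told apart.

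The make-up by class moved as well. Network collagens held 42.0 ± 5.41% of the summed collagen FPKM in EIIa-ctl hearts and 25.6 ± 2.88% in EIIa-tg, while fibrillar collagens held 32.0 ± 3.54% and 47.1 ± 3.45%, and neither pair of groups overlapped. In Myh6-ctl hearts fibrillar collagens held 39.3 ± 5.26% and network collagens 30.6 ± 7.28%, against 48.8 ± 4.77% and 37.1 ± 6.95% in Myh6-tg, and both pairs of groups overlapped. The beaded filament genes went from 19.9 ± 1.60% in Myh6-ctl to 8.39 ± 1.28% in Myh6-tg and the multiplexins from 6.78 ± 0.389% to 1.71 ± 0.549%, with no overlap. In EIIa-tg these 2 classes held 18.1 ± 0.617% and 5.99 ± 0.456%, against 16.6 ± 1.5% and 7.05 ± 0.584% in EIIa-ctl. There the beaded filament shares overlapped, while the multiplexin shares did not (5.54 to 6.45% in EIIa-tg, 6.54 to 7.69% in EIIa-ctl). FACITs stayed a small part, between 2.07 ± 0.39% in EIIa-ctl and 3.68 ± 0.485% in Myh6-tg. Their share did not overlap between EIIa-tg (2.56 to 3.24%) and EIIa-ctl (1.62 to 2.34%). These are shares, so one class can take a smaller share with no lower level of its own.

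**Figure D2:**
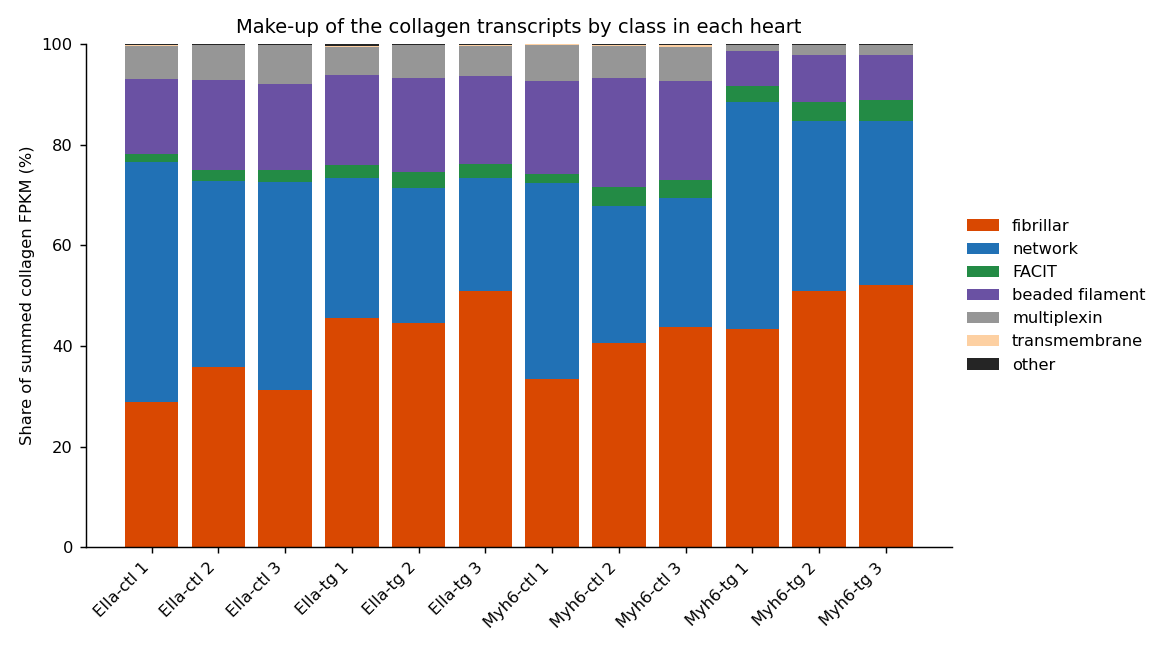
Share of the summed collagen FPKM (%) held by each class in each of the 12 hearts, as stacked bars. Beaded filament and multiplexin genes take a smaller part of the bar in the 3 Myh6-tg hearts, and network genes take a smaller part in the 3 EIIa-tg than in the 3 EIIa-ctl hearts.

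The largest collagen changes were those of Myh6-tg against Myh6-ctl hearts. Of 36 members tested with edgeR (quasi-likelihood test, adjusted over all 15298 genes tested), 13 rose and 1 fell at an adjusted p below 0.05. Over all genes tested, 8.96% were called higher and 9.38% lower, so the collagens stood well above the background upward and below it downward. Their median log2 fold change was 0.94, against 0.03 over all genes. By the stricter threshold used in the study (adjusted p below 0.01 and a change of at least 2-fold), 8 collagens were called, and 3.97% of all genes. The study applied this threshold to DESeq2 values, while here it was applied to those of edgeR. All 3 Myh6-tg hearts lay above all 3 controls for 14 collagens and below them for 2, which over all genes was so for 20.6% and 19.6%. Without Myh6-tg replicate 1, 18 collagens were called; without Myh6-ctl replicate 1, 2 or 3 the count was 9, 8 and 9, and without Myh6-tg replicate 2 or 3 it was 8 each time.

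Type I collagen, the main component of heart fibrils, rose in both of its chains. Col1a1 (chromosome 11, 94936224 to 94953042) stood at 161, 149.8 and 184 CPM in the Myh6-ctl hearts and at 466, 769 and 899 CPM in the Myh6-tg hearts. The lowest transgenic heart was above the highest control, and the fold change was 4.31 (log2 2.11, SE 0.29, adjusted p = 0.00515). Col1a2 (chromosome 6, 4504814 to 4541544), which encodes the other chain of the same trimer, stood at 210.2, 243 and 295 CPM and at 678, 1166 and 1322 CPM. It rose 4.24-fold (log2 2.08, SE 0.31, adjusted p = 0.00653). On the FPKM scale the mean level of Col1a1 was 25.1 ± 5.85 in Myh6-ctl and 144 ± 55.7 in Myh6-tg.

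Type III collagen, which forms thin fibrils and mixed fibrils with type I, did not pass the test. Col3a1 (chromosome 1, 45311538 to 45349706) stood at 388, 351 and 513 CPM in the Myh6-ctl hearts and at 448, 1565 and 1534 CPM in the Myh6-tg hearts, so replicate 1 lay among the controls and the other 2 hearts far above them. The log2 fold change was 1.5 (SE 0.46) with an adjusted p of 0.0587. Without Myh6-tg replicate 1 the adjusted p was 0.00203, and DESeq2, which called 19.3% of all genes, called Col3a1 with all 6 hearts at an adjusted p of 0.00253.

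The minor fibrillar chains, which nucleate fibrils and set their diameter, rose together with type I. Col5a2 (chromosome 1, 45374321 to 45503282), a chain of type V, stood at 57.1, 37.8 and 65.9 CPM in Myh6-ctl and at 297, 504 and 576 CPM in Myh6-tg. That is an 8.57-fold difference with no overlap (log2 3.10, SE 0.34, adjusted p = 0.0027). Col5a1 (chromosome 2, 27886425 to 28039514), the chain that joins Col5a2 in most type V trimers, stood at 77.0, 54.9 and 87.5 CPM and at 109.7, 241 and 249.5 CPM. It rose 2.74-fold (log2 1.45, SE 0.34, adjusted p = 0.0262), less than its partner. Col11a1 (chromosome 3, 114030540 to 114220718), which is best known from cartilage fibrils and can take the place of a type V chain, was listed at 0 in all 3 Myh6-ctl hearts and stood at 4.59, 6.49 and 9.75 CPM in Myh6-tg (215 to 515 counts). Its mean was at least 89.4-fold higher than the largest value that 3 counts allow in a control heart, and the lowest transgenic heart at least 59.1-fold (adjusted p = 0.00224). The other fibrillar genes tested, Col5a3, Col11a2 and Col27a1, had adjusted p-values from 0.684 to 0.839.

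Both type IV chains of the common basement membrane rose. Col4a2 (chromosome 8, 11312805 to 11449287) stood at 457, 226 and 239 CPM in Myh6-ctl and at 1029, 1203 and 1230.5 CPM in Myh6-tg, a 3.76-fold difference (log2 1.91, SE 0.32, adjusted p = 0.00962). Col4a1 (chromosome 8, 11198423 to 11312826) stood at 687, 299 and 387 CPM and at 994, 1389 and 1389.7 CPM, a 2.75-fold difference (log2 1.46, SE 0.35, adjusted p = 0.0272). No transgenic heart overlapped a control for either gene. The other type IV genes, whose chains form the networks of specialised basement membranes, were not called. Col4a5 lay above the controls in all 3 hearts (43.4 to 69.5 CPM against 24.4 to 41.4 CPM) with a log2 fold change of 0.66 and an adjusted p of 0.118. Col4a3 had a log2 fold change of 0.90 and an adjusted p of 0.192, which was 0.0146 without Myh6-tg replicate 1, and Col4a4 and Col4a6 had adjusted p-values of 0.974 and 0.918.

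Type VIII, a short-chain network collagen known from vessel walls and from injured heart and vessel tissue, rose in both chains. Col8a1 (chromosome 16, 57624258 to 57754737) stood at 37.0, 61.0 and 63.2 CPM in Myh6-ctl and at 175, 394 and 417 CPM in Myh6-tg. It rose 6.12-fold with no overlap (log2 2.61, SE 0.38, adjusted p = 0.0064). Col8a2 (chromosome 4, 126286793 to 126314330) was far rarer, at 0.814, 0.725 and 1.58 CPM and at 2.24, 13.5 and 18.1 CPM, a 10.8-fold difference (log2 3.43, SE 0.74, adjusted p = 0.0196) with replicate 1 close to the controls.

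Of 7 FACIT genes tested, 4 rose. Col12a1 (chromosome 9, 79598991 to 79718831), a FACIT of fibril surfaces in tendon and other loaded tissue, stood at 1.56, 1.40 and 3.07 CPM in Myh6-ctl and at 30.9, 84.3 and 77.2 CPM in Myh6-tg. It rose 31.7-fold with no overlap (log2 4.99, SE 0.50, adjusted p = 0.00227). Col16a1 (chromosome 4, 130047840 to 130099283) stood at 10.4, 10.3 and 18.2 CPM and at 25.7, 68.5 and 81.9 CPM, a 4.53-fold rise (log2 2.18, SE 0.44, adjusted p = 0.0166). Col9a2 (chromosome 4, 121039385 to 121055322), a chain of the cartilage FACIT type IX, stood at 0.317, 1.17 and 0.816 CPM and at 1.52, 15.8 and 19.6 CPM (log2 4.01, SE 0.92, adjusted p = 0.0236). In Myh6-tg hearts that is 71, 727 and 1034 counts, while its partner Col9a1 was listed at 0 and Col9a3 had 11, 19 and 26 counts.

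Among the FACITs, 2 results depended on single hearts or on the fit. Col22a1 (chromosome 15, 71795795 to 72034227), which marks tissue junctions such as that of muscle and tendon, stood at 0, 0.233 and 0.455 CPM in Myh6-ctl and at 0.256, 11 and 13.8 CPM in Myh6-tg. The groups overlapped, since replicate 1 was no higher than a control, and the log2 fold change of 5.14 (SE 1.45, adjusted p = 0.0457) rests on control values near the limit of detection. Col14a1, the most abundant FACIT, stood at 22.5, 37.2 and 66.2 CPM and at 54.5, 65.5 and 82.6 CPM, with overlap. Its log2 fold change was 0.69 (SE 0.37, adjusted p = 0.237), and it passed with the replicate number as a block (adjusted p = 0.0451).

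The beaded filament genes did not follow the fibrillar ones. Col6a6 (chromosome 9, 105687809 to 105828160), an alternative chain of type VI, was the only collagen called lower with all 6 hearts, at 10.3, 6.16 and 9.70 CPM in Myh6-ctl and 0.384, 0.825 and 1.44 CPM in Myh6-tg. It was 9.8-fold lower with no overlap (log2 -3.29, SE 0.50, adjusted p = 0.00694). Col6a3 (chromosome 1, 90765923 to 90843971), the large chain that the usual type VI trimer needs, stood at 86.1, 64.9 and 82.3 CPM and at 15, 56.9 and 48.4 CPM. All 3 transgenic hearts lay below all controls, with a log2 fold change of -0.95 (SE 0.44) and an adjusted p of 0.166. Its partners Col6a1 (149, 139.7 and 157 CPM against 112, 264 and 271 CPM, adjusted p = 0.29) and Col6a2 (168, 148 and 172 CPM against 107, 265 and 260.4 CPM, adjusted p = 0.479) had replicate 1 below the controls and the other 2 hearts above them. Without that heart both were called higher, at adjusted p-values of 0.00756 and 0.0183.

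The remaining classes gave no call in Myh6-tg hearts. The multiplexin Col15a1 (chromosome 4, 47208161 to 47313167), a basement membrane collagen of muscle and capillaries, stood at 158, 105 and 142 CPM in Myh6-ctl and at 27.7, 128 and 137 CPM in Myh6-tg, where replicate 1 was far below the rest (log2 fold change -0.47, SE 0.52, adjusted p = 0.567). Col18a1, the source of endostatin, stood at 19.4, 14.5 and 22.1 CPM and at 16.6, 21.5 and 23.9 CPM, and its groups overlapped. The most abundant transmembrane members were Col23a1, at 2.17, 1.92 and 4.92 CPM against 1.84, 3.08 and 3.31 CPM, and Col13a1, at 0.746, 0.596 and 1.08 CPM against 2.22, 1.78 and 1.42 CPM. Col13a1 did not overlap (log2 fold change 1.15, adjusted p = 0.115). Of the others, Col28a1 stood at 0.746, 0.751 and 3.00 CPM against 1.88, 4.38 and 3.54 CPM and Col26a1 at 0.452, 1.63 and 0.645 CPM against 1.84, 1.58 and 1.99 CPM. The 8 members not tested were Col2a1, Col6a4, Col6a5, Col9a1, Col10a1, Col17a1, Col19a1 and Col24a1, none with more than 17 counts in any of the 12 hearts.

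Of the 14 calls, 8 held whichever of the 6 hearts was left out: Col1a1, Col1a2, Col5a2, Col11a1, Col4a2, Col8a1, Col12a1 and Col6a6. They are also the 8 that passed the study threshold. The other 6 (Col5a1, Col4a1, Col8a2, Col9a2, Col16a1 and Col22a1) were called in all cases without Myh6-tg replicate 1, with adjusted p-values from 0.00099 to 0.016, and lost the call in 4 or 5 of the other 5 fits. Col16a1 kept it without Myh6-ctl replicate 3 (adjusted p = 0.0367) and Col4a1 without Myh6-ctl replicate 1 (adjusted p = 0.0285). Where the call was lost, the adjusted p-values of these 6 lay between 0.0506 and 0.13.

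**Figure D3:**
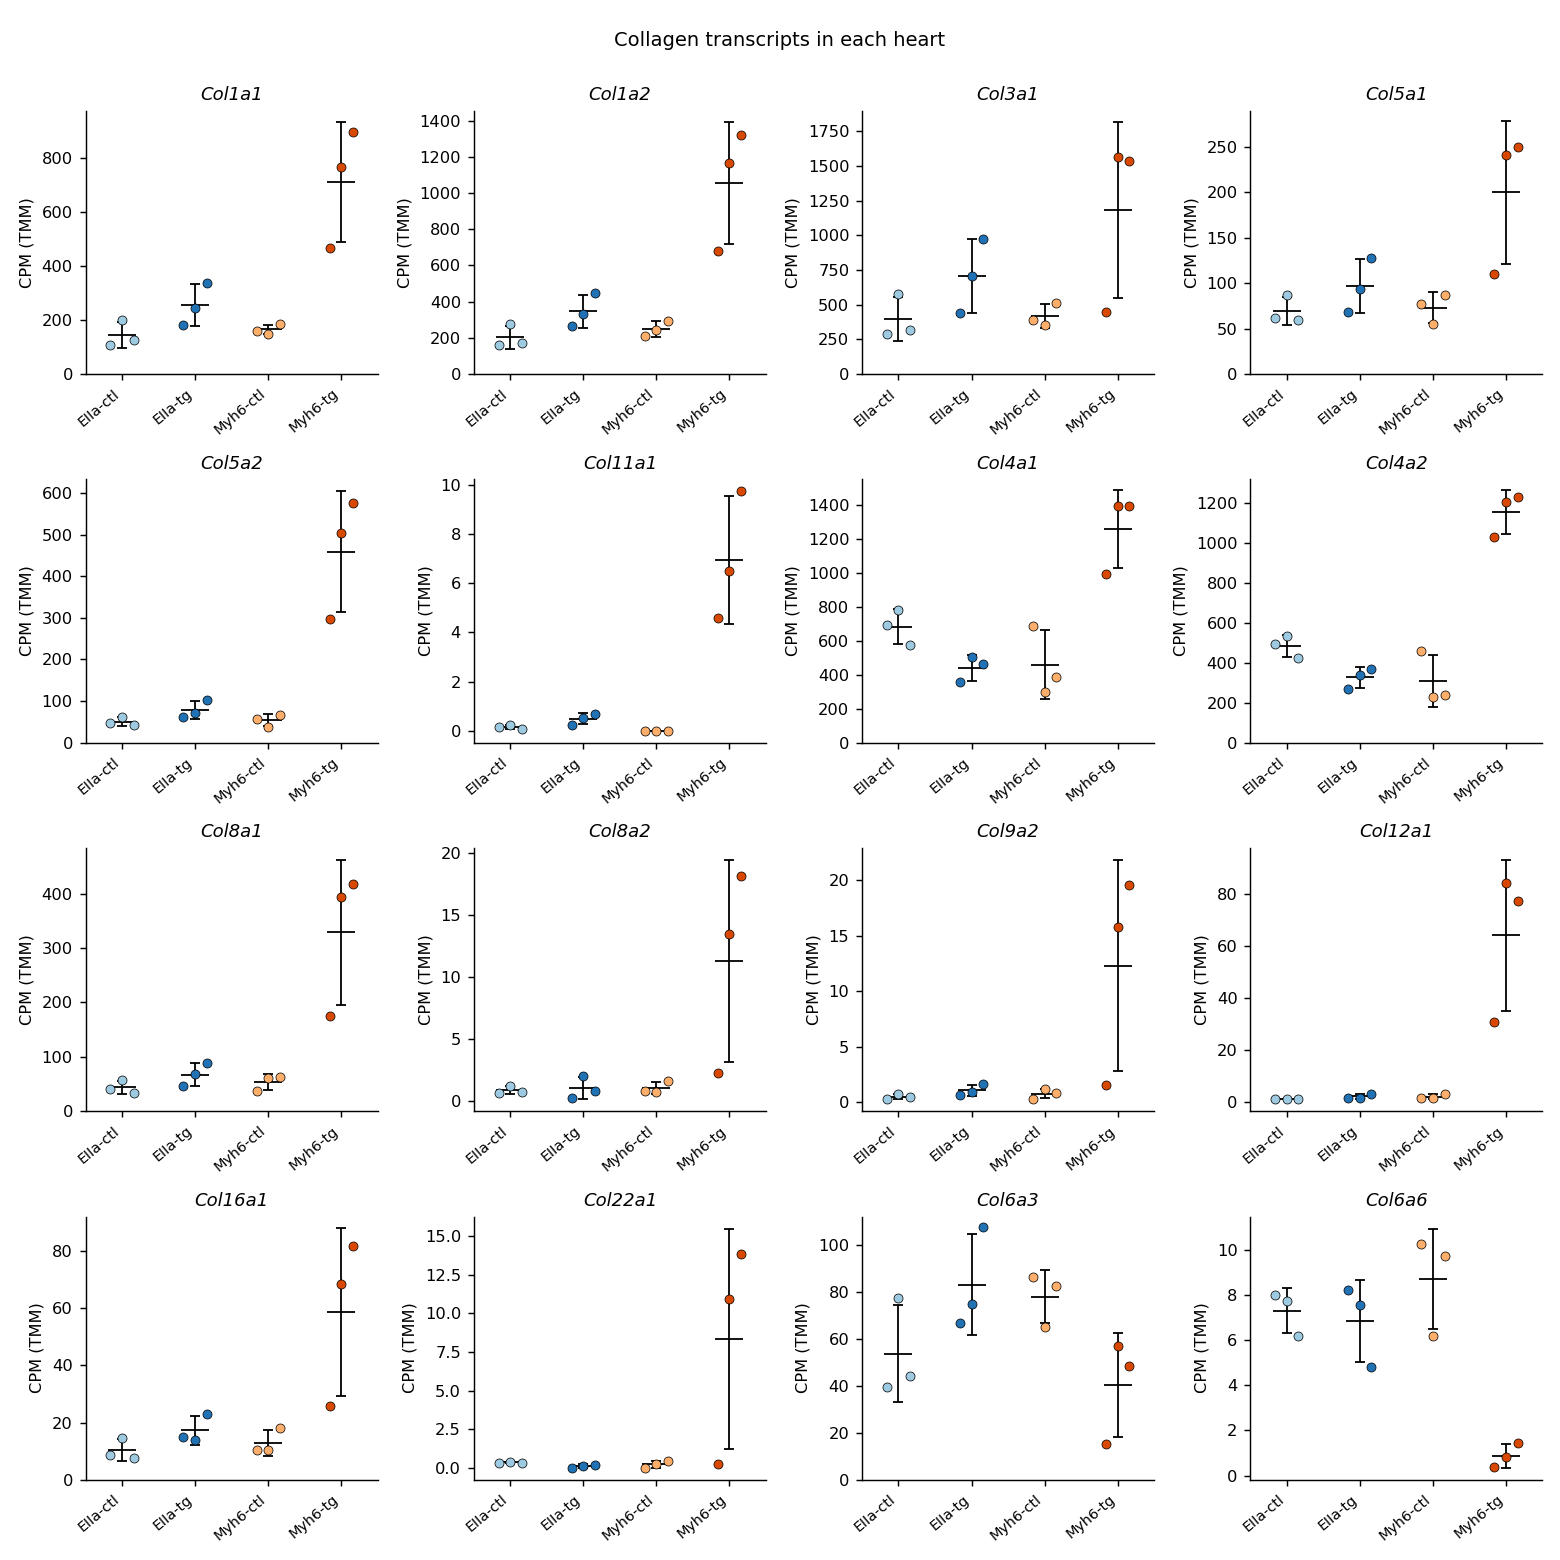
TMM-normalised CPM of 16 collagens, 1 panel per gene with its own linear axis from 0, where each point is 1 heart and the bars are the mean and SD of the 3 hearts of a group. In Myh6-tg hearts Col1a1, Col5a2, Col8a1 and Col12a1 lie above every control and Col6a6 below, while Col3a1 of Myh6-tg replicate 1 (448 CPM) lies among the controls.

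In the ubiquitous line the collagen changes were smaller and the called ones went down. Of 34 members tested in EIIa-tg against EIIa-ctl hearts, 2 fell and 0 rose in edgeR's test (adjusted over 14908 genes), while 8.3% of all genes were called lower and 8.65% higher. Neither collagen count thus lay above the background. At an unadjusted p below 0.05, 15 of the 34 collagens passed, and 5204 of the 14908 genes. With edgeR, neither any collagen nor any other gene passed the study threshold, a background of 0.0%. The study applied that threshold to DESeq2 values and did report differentially expressed genes in EIIa-tg hearts. The median log2 fold change of the 34 was 0.36 (24 positive, 10 negative) against 0.02 over all genes, and 5 collagens lay above all controls and 3 below, where 20.3% and 20.8% of all genes did.

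The pair that fell encodes the common type IV chains. Col4a1 stood at 692, 778 and 575 CPM in EIIa-ctl hearts and at 353, 502 and 462 CPM in EIIa-tg hearts, with no overlap, and was 1.56-fold lower (log2 -0.64, SE 0.17, adjusted p = 0.0391). Col4a2 stood at 492, 534 and 422 CPM and at 267, 341 and 369.8 CPM, again with no overlap, and was 1.49-fold lower (log2 -0.57, SE 0.15, adjusted p = 0.0384). Both calls were kept without EIIa-tg replicate 2 and lost without any one of the other 5 hearts, when the adjusted p-values reached 0.12 for each gene. The fit of all 12 hearts called neither (adjusted p = 0.22 for each). Limma on log2(FPKM + 1) gave adjusted p-values of 0.103 and 0.134. Network genes had a median log2 fold change of -0.40, with Col4a3 at -0.91 (SE 0.33, adjusted p = 0.0909) and Col4a4 at -0.64 (adjusted p = 0.11). Type IV did not move as one, since Col4a5 was at -0.22 (adjusted p = 0.308) and Col4a6 at 0.80 (adjusted p = 0.0869) on the same scale, the latter with all 3 transgenic hearts (2.12 to 3.32 CPM) above the controls (1.33 to 1.80 CPM).

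The fibrillar genes of EIIa-tg hearts pointed up but were not called by edgeR. Col1a2 stood at 162, 274 and 169 CPM in EIIa-ctl and at 263, 332 and 445 CPM in EIIa-tg (log2 fold change 0.77, SE 0.25, adjusted p = 0.0618). Col1a1 stood at 107, 199.9 and 127 CPM and at 183, 244 and 339 CPM (0.82, SE 0.27, adjusted p = 0.0717), and Col3a1 at 290.2, 579.7 and 319.7 CPM and at 443, 705 and 977 CPM (0.83, SE 0.33, adjusted p = 0.115). In each of the 3 genes EIIa-ctl replicate 2 lay above the lowest transgenic heart, so the groups overlapped. Of 9 fibrillar genes tested 8 had a positive log2 fold change, with a median of 0.71.

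The call of the fibrillar genes depended on the tool and on single hearts. DESeq2 called 8 collagens in EIIa-tg hearts, where 9.24% of all genes were called higher and 8.91% lower by it. Of these, 5 were higher, namely Col1a1 (adjusted p = 0.00741), Col1a2 (0.00526), Col5a2 (0.0162), Col8a1 (0.0496) and Col16a1 (0.0414). The 3 lower were Col4a1 (0.00123), Col4a2 (0.00176) and Col4a3 (0.0438). Limma on log2(FPKM + 1) called 2 collagens, Col1a1 and Col1a2, both higher, so on that scale the split of 0 higher and 2 lower turned to 2 higher and 0 lower; the median of all genes moved to 0.16 there and to 0.34 in the Myh6 comparison. With edgeR, 5 collagens were called higher without EIIa-ctl replicate 2, 1 higher and 4 lower without EIIa-tg replicate 2, and 0 without EIIa-ctl replicate 1 or 3 or EIIa-tg replicate 1 or 3. Over all genes the number of calls moved in the same fits from 2527 to between 0 and 4079.

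The other members gave no edgeR call in EIIa-tg hearts with all 6 hearts in the fit. Col5a2 stood at 46.5, 62.1 and 42.8 CPM and at 61.7, 70.5 and 102 CPM (log2 fold change 0.63, adjusted p = 0.068), and Col5a1 at 61.5, 86.9 and 58.9 CPM and at 68.2, 93.9 and 127 CPM (0.48, adjusted p = 0.18). Col11a1 stayed near the limit of detection, at 0.137, 0.235 and 0.0815 CPM and at 0.247, 0.517 and 0.69 CPM. Among the network genes outside type IV, Col8a1 stood at 40.5, 56.7 and 33.8 CPM and at 45.8, 67.6 and 87.9 CPM (0.62, adjusted p = 0.124) and Col8a2 at 0.638, 1.20 and 0.707 CPM and at 0.247, 1.97 and 0.802 CPM.

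Of 6 FACIT genes tested in EIIa-tg hearts, 0 were called by edgeR with all 6 hearts, and their median log2 fold change was 0.62, with 5 positive. Col12a1, which rose 31.7-fold in the cardiomyocyte line, stood at 1.28, 1.30 and 1.28 CPM in EIIa-ctl and at 1.70, 1.61 and 3.16 CPM in EIIa-tg (log2 fold change 0.74, adjusted p = 0.165), with no overlap. Col16a1 stood at 8.61, 14.7 and 7.53 CPM and at 14.9, 13.9 and 23.1 CPM (0.75, SE 0.28, adjusted p = 0.0987). Col14a1 stood at 16.7, 37.6 and 24.1 CPM and at 21.2, 50.9 and 38.8 CPM (0.50, adjusted p = 0.355). The rare Col9a2 stood between 0.296 and 0.730 CPM in EIIa-ctl and between 0.641 and 1.60 CPM in EIIa-tg, and Col22a1 was at or below 0.391 CPM in all 6 hearts.

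No type VI or multiplexin gene was called between the EIIa groups. Col6a1 stood at 116, 188 and 125 CPM and at 127, 199 and 216 CPM (log2 fold change 0.33, adjusted p = 0.353), Col6a2 at 114, 207 and 135 CPM and at 129.6, 199.8 and 223 CPM (0.27, adjusted p = 0.485), and Col6a3 at 39.3, 77.2 and 44.1 CPM and at 66.7, 74.8 and 107 CPM (0.63, adjusted p = 0.137). Col6a6 stood at 7.99, 7.74 and 6.17 CPM and at 8.24, 7.53 and 4.81 CPM, so the 2 groups overlapped. Col15a1 averaged 152 ± 35.2 and 152 ± 48.8 CPM, and Col18a1 averaged 19.2 ± 3.30 and 19.4 ± 3.67 CPM. In the transmembrane and other classes, Col23a1 stood at 1.69, 2.29 and 1.74 CPM and at 2.66, 2.94 and 3.70 CPM, Col13a1 at 1.21, 0.599 and 0.544 CPM and at 1.18, 0.556 and 0.713 CPM, Col28a1 at 2.37, 1.07 and 0.951 CPM and at 3.90, 1.35 and 4.63 CPM, and Col26a1 at 1.02, 1.41 and 1.03 CPM and at 0.764, 1.47 and 0.913 CPM. Col23a1 was the only one of these 4 whose groups did not overlap, and none was called.

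The change in Myh6-tg hearts and the change in EIIa-tg hearts were compared gene by gene in 1 fit of all 12 hearts. The difference, Myh6 minus EIIa, was positive for 6 of 38 collagens tested and negative for 1 at an adjusted p below 0.05 (edgeR, 15929 genes tested), where 1.65% of all genes were called positive and 2.27% negative. The median difference was 0.64 against -0.04 over all genes. By the study threshold 4 collagens were called and 0.622% of all genes. DESeq2 called 14 collagens, 12 positive and 2 negative, and 6.71% of all genes.

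Col4a1 and Col4a2 were called higher in Myh6-tg. In EIIa-tg they were called lower when that line was fitted alone, but not in the fit of all 12 hearts. The difference in log2 fold change was 2.48 (SE 0.36, adjusted p = 0.00542) for Col4a2 and 2.09 (SE 0.40, adjusted p = 0.0153) for Col4a1. The remaining positive differences were those of Col11a1 (adjusted p = 0.00386), Col12a1 (4.24, SE 0.59, adjusted p = 0.00418), Col5a2 (2.47, SE 0.41, adjusted p = 0.00947) and Col8a1 (1.99, SE 0.49, adjusted p = 0.0442), and the negative one was that of Col6a6 (-3.20, SE 0.54, adjusted p = 0.0102). Of these 7, 6 were called whichever of the 12 hearts was left out. With 1 heart left out, Col8a1 kept its call without EIIa-tg replicate 3 (adjusted p = 0.0459) or Myh6-tg replicate 1 (0.00454) and lost it in the other 10 fits (0.0603 to 0.112).

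For type I and type III collagen the lines were not shown to differ. The difference was 1.29 (SE 0.42, adjusted p = 0.115) for Col1a1, 1.30 (SE 0.41, adjusted p = 0.104) for Col1a2 and 0.66 (SE 0.62, adjusted p = 0.606) for Col3a1. For Col22a1 it was 6.78 (SE 1.83, adjusted p = 0.0625), with fewer than 0.5 CPM in all but 2 hearts, and for Col6a3 it was -1.59 (SE 0.57, adjusted p = 0.148). Without Myh6-tg replicate 1 the count of collagens that differed went from 7 to 15. The lines also differ in age, Cre, tamoxifen and time since recombination, which cannot be told apart here.

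**Figure D4:**
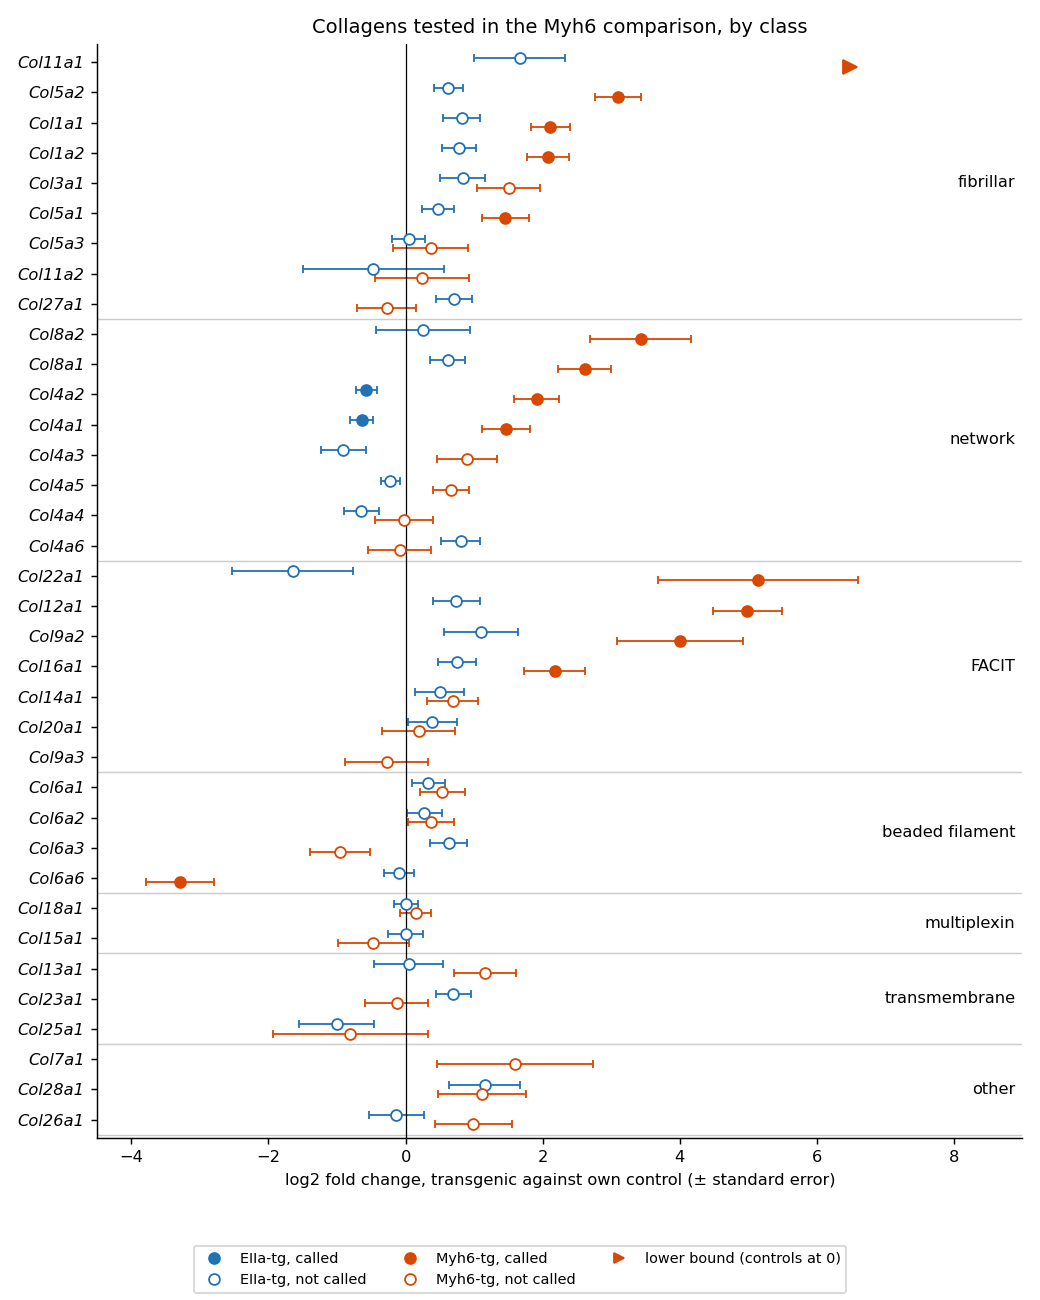
Log2 fold change, with its standard error, of the 36 collagens tested in the Myh6 comparison, by class, for EIIa-tg (blue) and Myh6-tg (orange) against their own controls. Filled points are called (adjusted p below 0.05, edgeR), and the arrow is the lower bound for Col11a1, whose Myh6-ctl hearts were at 0. In Myh6-tg 13 members are called higher and 1 lower, and in EIIa-tg 2 network members are called lower.

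The last comparison was between the control hearts of the 2 lines. Myh6-ctl hearts (P90, oil-injected, with creERT2) were set against EIIa-ctl hearts (P30, no Cre), where age, Cre and injection cannot be told apart. Of 35 collagens tested, 0 were called by edgeR, 2 had an unadjusted p below 0.05 (Col4a2 and Col27a1), and DESeq2 called 0, while edgeR called 0.0334% of all genes. Col4a2 averaged 483 ± 56.6 CPM in EIIa-ctl and 307 ± 129.8 CPM in Myh6-ctl (log2 fold change -0.65, SE 0.27, adjusted p = 0.415). Myh6-ctl replicate 1 was at the level of the younger hearts (457 CPM), and without it Col4a2 was called lower (adjusted p = 0.0421). Col4a1 averaged 682 ± 102 and 458 ± 204 CPM (-0.57, SE 0.29, adjusted p = 0.509). Col1a1 and Col1a2 differed by log2 0.19 and 0.30, with adjusted p-values of 0.814 and 0.664.

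Chains that share a trimer did not all keep their ratio. The FPKM ratio of Col5a2 to Col5a1 was 3.43, 2.65 and 2.93 in the 3 Myh6-tg hearts and 0.924 ± 0.0428 in Myh6-ctl, and in the younger line it was 0.929 ± 0.027 for EIIa-ctl and 1.04 ± 0.0995 for EIIa-tg. In the usual type V trimer Col5a1 gives 2 chains and Col5a2 gives 1. The ratio of Col6a1 to Col6a3 was 16.4, 10.2 and 12.3 in Myh6-tg hearts and 4.24 ± 0.461 in Myh6-ctl, and 6.02 ± 0.598 in EIIa-ctl and 4.81 ± 0.902 in EIIa-tg. Both ratios were higher in every Myh6-tg heart, replicate 1 included, than in any of the other 9.

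Other pairs moved less. The ratio of Col4a1 to Col4a2 was 0.947, 1.13 and 1.11 in Myh6-tg hearts, below all others. It was 1.45 ± 0.146 in Myh6-ctl, 1.37 ± 0.0454 in EIIa-ctl and 1.32 ± 0.111 in EIIa-tg. The ratio of Col3a1 to Col1a1 was 1.03, 2.17 and 1.82 in Myh6-tg hearts and 2.50 to 3.09 in the rest. In contrast, Col1a2 to Col1a1 stayed between 1.45 and 1.80 and Col6a2 to Col6a1 between 0.972 and 1.15 over all 12 hearts. These ratios are descriptions without a test, for the reason of sample number given above.

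**Figure D5:**
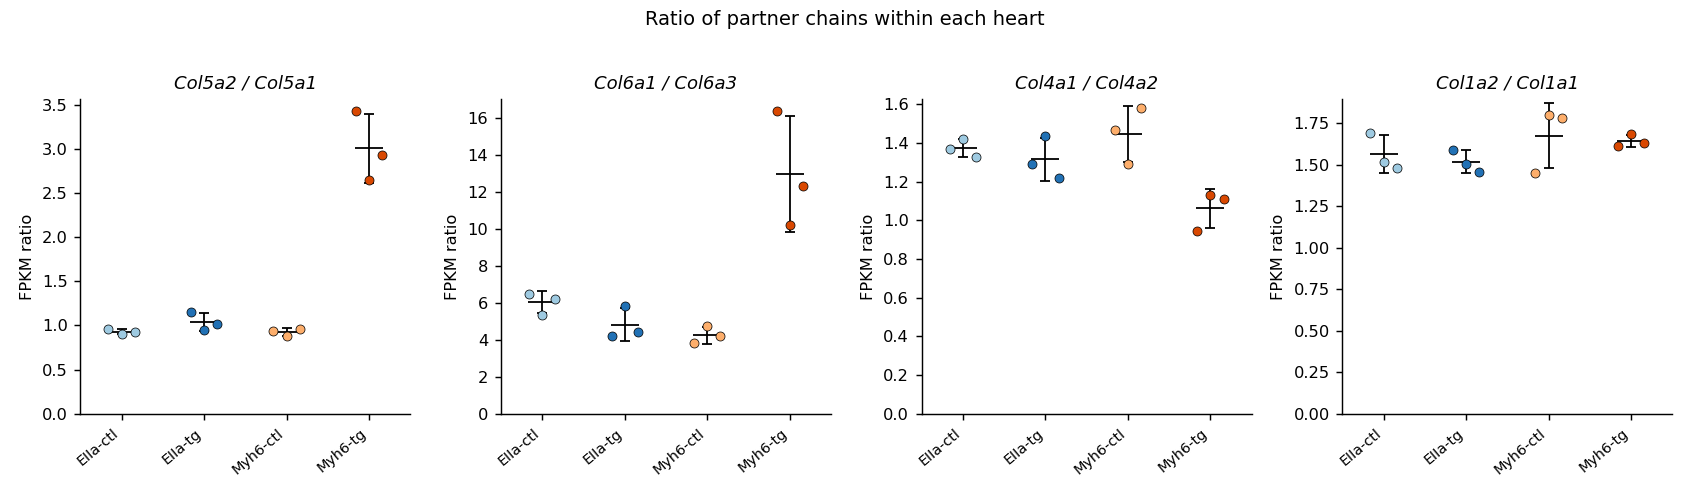
FPKM ratio of 4 pairs of collagen chains by group, where each point is 1 heart and the bars are the mean and SD of 3 hearts. The ratios of Col5a2 to Col5a1 and of Col6a1 to Col6a3 are higher in all 3 Myh6-tg hearts than in the other 9, and Col1a2 to Col1a1 stays between 1.45 and 1.80.

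Collagen chains must be hydroxylated and glycosylated, folded by chaperones, exported, and trimmed of their propeptides before they assemble, and they are then bound by receptors and cut by proteases. The lists of these genes were chosen with earlier results of these data known, so their counts are descriptions and not a test. In Myh6-tg hearts 5 of 15 hydroxylation and glycosylation genes rose and 2 fell, where 8.96% of all genes were called higher and 9.38% lower, so a count of 1 or 2 in a list of this size is near the background. P3h1, a prolyl 3-hydroxylase, rose (log2 fold change 1.07, adjusted p = 0.0096) and Colgalt2, a collagen galactosyltransferase, fell (-1.63, adjusted p = 0.0112). P4ha3, a subunit of prolyl 4-hydroxylase, was called higher from near the limit of detection, at 0.0905, 0 and 0.285 CPM in Myh6-ctl and 3.78, 0.846 and 2.73 CPM in Myh6-tg (adjusted p = 0.0315). Of 12 chaperone and secretion genes 5 rose and 1 fell. Those that rose included Sparc, a collagen-binding matricellular protein (1.72, adjusted p = 0.0094), and the collagen prolyl isomerases Fkbp10 (0.98, adjusted p = 0.0249) and Fkbp14 (0.86, adjusted p = 0.0138).

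Later steps of the pathway also moved in Myh6-tg hearts. Of 8 propeptide-removal genes 3 rose and 0 fell: Adamts2, which cuts the N-propeptide of fibrillar collagen (log2 fold change 2.09, adjusted p = 0.00527), Bmp1, which cuts the C-propeptide (0.92, adjusted p = 0.0124), and its enhancer Pcolce (0.89, adjusted p = 0.0352). Of 9 receptor genes tested 3 rose: Itgb1, the beta subunit of the collagen-binding integrins (1.19, adjusted p = 0.0106), the uptake receptor Mrc2 (0.84, adjusted p = 0.0404) and the tyrosine kinase receptor Ddr1 (0.86, adjusted p = 0.0486, and 0.0732 with the replicate block). Of 12 degradation genes 4 rose and 1 fell. The gelatinase Mmp2 stood at 105, 131 and 139.6 CPM in Myh6-ctl and at 416, 554 and 666 CPM in Myh6-tg (2.12, adjusted p = 0.00354), and the membrane-bound Mmp14 rose (2.22, adjusted p = 0.015) while its relative Mmp15 fell (-2.95, adjusted p = 0.00502). Of the pathway genes named here for Myh6-tg, Sparc, Adamts2, Mmp2 and Mmp15 were called in all 6 fits that left out 1 heart, Fkbp10 and Pcolce in 1 and Ddr1 in 0.

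In EIIa-tg hearts fewer of these genes were called, and the counts of 0 to 2 per list and direction stand beside a background of 8.65% of all genes called higher and 8.3% lower. Only P3h2, a prolyl 3-hydroxylase of type IV and other collagens, rose among the 15 modification genes (log2 fold change 2.59, adjusted p = 0.0135), and only the endoplasmic reticulum channel Tmem38b among the 12 chaperone and secretion genes (0.68, adjusted p = 0.0214). Of 8 propeptide genes 0 were called by edgeR with all 6 hearts. Among 9 receptors Itga1, an integrin subunit that binds type IV collagen, fell (-0.84, adjusted p = 0.0166) and Mrc2 rose (0.62, adjusted p = 0.0499). Of 11 degradation genes 2 rose and 2 fell, among them the protease inhibitor Timp1 up (3.36, adjusted p = 0.0178) and Mmp13 (-1.49, adjusted p = 0.0339) and Mmp15 (-1.16, adjusted p = 0.0194) down. Each of these calls held in no more than 3 of the 6 fits that left out 1 heart. The 2 lines differed for P3h1 (difference 0.96, adjusted p = 0.0228), Sparc (1.92, adjusted p = 0.0135) and Itgb1 (1.04, adjusted p = 0.0153), each a larger change in Myh6-tg.

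More activated fibroblast markers were called in the line where more collagens were called, while general fibroblast markers had a median log2 fold change of 0.16 in Myh6-tg and 0.56 in EIIa-tg. Over all genes tested, 8.96% were called higher in Myh6-tg, 8.65% were called higher in EIIa-tg and 1.65% were called positive in the difference. Of 12 activated fibroblast markers, 8 rose in Myh6-tg hearts and 3 in EIIa-tg hearts, and 6 differed between the lines. The marker lists were chosen with earlier results of these data known, so these counts are descriptions and not a test. In Myh6-tg the largest were Cthrc1 (log2 fold change 6.14, adjusted p = 0.00217), Thbs4 (5.93, adjusted p = 0.0116) and Ltbp2, which stood at 3.71, 4.14 and 4.99 CPM in Myh6-ctl and at 103, 174 and 252 CPM in Myh6-tg (5.36, adjusted p = 0.00102). Their summed level was 369.8 to 514 CPM in Myh6-ctl and 1559 to 5609 CPM in Myh6-tg, against 311 to 590.0 CPM in EIIa-ctl and 333 to 620.1 CPM in EIIa-tg. Of 12 general fibroblast markers (Ddr2 is also among the receptors), 3 rose in Myh6-tg, namely Mfap5 (2.68, adjusted p = 0.00596), Pdgfra (1.23, adjusted p = 0.0145) and Vim (1.09, adjusted p = 0.0428), and 5 in EIIa-tg, among them Dcn (0.94, adjusted p = 0.0186), Pi16 (1.05) and Gsn (0.67). Their sums were 3859 to 4748 CPM in Myh6-ctl, 3320 to 7198 CPM in Myh6-tg, 3012 to 3667 CPM in EIIa-ctl and 4572 to 6292 CPM in EIIa-tg. The Myh6-tg hearts were split in Dcn, Gsn and Pi16, where replicate 1 lay below all controls and replicates 2 and 3 above them. Dcn stood at 760, 1853 and 1975 CPM against 916 to 1044 CPM in Myh6-ctl, and Pi16 at 71.2, 364 and 285 CPM against 95.1 to 127 CPM. The median of 0.16 thus includes a heart that went the other way in these genes. Without 1 heart at a time, Ltbp2, Cthrc1 and Mfap5 were called in all 6 fits of the Myh6 line, and the named EIIa-tg markers in 2 of 6. The part that fibroblast number plays in the collagen changes was not tested.

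Every called cardiomyocyte marker went down, where 9.38% of all genes were called lower in Myh6-tg and 8.3% in EIIa-tg. Of 10, 5 fell in Myh6-tg, among them Myl3 (log2 fold change -1.97, adjusted p = 0.00945), Myh6 (-2.60, adjusted p = 0.0208) and Pln (-2.52, adjusted p = 0.0341), and 2 in EIIa-tg, Ryr2 (-1.05, adjusted p = 0.0322) and Myl3 (-0.84, adjusted p = 0.0426). Their sums were 34236 to 46325 CPM in Myh6-ctl, 10965 to 33486 CPM in Myh6-tg, 44413 to 53548 CPM in EIIa-ctl and 22787 to 38870.4 CPM in EIIa-tg. Not all members fell. Tnnt2 stood at 9675, 3557 and 2950 CPM in Myh6-tg against 3191 to 4769 CPM in Myh6-ctl, and averaged 4344 CPM in EIIa-tg and 4064 CPM in EIIa-ctl. Ryr2 stood at 826, 175 and 157 CPM in Myh6-tg against 355 to 565 CPM in Myh6-ctl, so replicate 1 lay above the controls and the other hearts below. Macrophage markers rose in EIIa-tg, 10 of 10, including Cd14 (1.32, adjusted p = 0.0135), Cd68 (1.59) and Itgam (1.51), with sums of 456 to 702 CPM in EIIa-ctl and 986 to 1289 CPM in EIIa-tg. In Myh6-tg 0 of 10 were called by edgeR, and the sums overlapped (886 to 1454 and 1015 to 2298 CPM). Their median log2 fold change was 0.58 there, and 0.96 in Myh6-ctl against EIIa-ctl, where none was called. Cd14 (26.1 to 124 CPM against 16.1 to 21.7) and Cd68 (36.8 to 132 CPM against 19.5 to 32.5) lay above all controls in Myh6-tg. Itgam overlapped, and Adgre1 averaged lower (22.4 CPM against 34.1). The named EIIa-tg calls of this paragraph held in 1 to 3 of the 6 fits that left out 1 heart; of those in Myh6-tg, Myl3 held in 6, Myh6 in 2 and Pln in 1. Their part in the collagen values was not tested.

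Markers of the vessel wall gave at most 3 calls per list in either line, to be read against the shares of all genes given above. In EIIa-tg, where Col4a1 and Col4a2 were called lower with all 6 hearts, 3 of 10 endothelial markers fell. They were Cdh5 (log2 fold change -0.59, adjusted p = 0.0217), Kdr (-0.69) and Tie1 (-0.46), while in Myh6-tg 0 were called. The median log2 fold change of the list was -0.19 in EIIa-tg and -0.37 in Myh6-tg, so a fall was not particular to EIIa-tg. Kdr stood at 52.8 to 74.8 CPM in Myh6-tg, below all Myh6-ctl hearts (85.3 to 364 CPM). Cdh5 and Tie1 averaged 134 and 65.5 CPM in Myh6-tg against 200 and 114 CPM in Myh6-ctl, with overlap. The sums overlapped in both lines (2870 to 3682 and 3219 to 4756 CPM in EIIa-ctl and EIIa-tg, 2755 to 4012 and 2587 to 3652 CPM in Myh6-ctl and Myh6-tg). Of 10 smooth muscle and pericyte markers 1 rose and 2 fell in each line. In EIIa-tg Cnn1 rose (3.81, adjusted p = 0.0147) and Abcc9 (-0.77) and Mcam (-0.49) fell, with sums of 1574 to 1609 CPM in EIIa-ctl and 1226 to 1449.7 CPM in EIIa-tg. In Myh6-tg Abcc9 fell (-2.04, adjusted p = 0.00207), Myh11 fell (-1.08, adjusted p = 0.0452, and 0.0629 with the replicate block) and Cnn1 was called higher with overlapping groups (4.82, adjusted p = 0.0299), with sums of 1199.5 to 1724 and 1063 to 1677 CPM. In the fits that left out 1 heart, Abcc9 held in 6 of 6 in Myh6-tg, Cnn1 and Myh11 in 1, and the named EIIa-tg calls in 1 to 3. Their part in the type IV values was not tested.

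Markers of tissues that express the rare collagens were low. Cartilage markers, of which 2 of 6 were listed at 0 in all hearts and 1 could be tested, summed to 4.32 to 7.87 CPM in Myh6-ctl and 2.11 to 12.5 CPM in Myh6-tg, and to 3.12 to 6.88 CPM in EIIa-ctl and 5.01 to 9.09 CPM in EIIa-tg. Schwann cell markers summed to 9.61 to 27.2 CPM and adipocyte markers to 0 to 8.73 CPM over the 12 hearts, and no marker of these 3 lists was called by edgeR in either line. In Myh6-ctl against EIIa-ctl hearts edgeR called 0 genes of any pathway or marker list.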

How the data were processed

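Hearts of 12 mice in 4 groups of 3 were sequenced as 150-base paired-end reads on a NovaSeq instrument. The authors mapped reads to GRCm38 with HISAT2, and deposited a table of raw gene counts and a table of FPKM values for each heart; the submitters' processing notes name HISAT2 2.0.4, StringTie 2.2.1 and DESeq2 and the builds GRCm39 and mm10, with no roles, and the counting program and annotation are not given in the sources used here. The deposited counts are whole numbers without normalization, and the deposited FPKM values were scaled by the authors to transcript length and mapped fragments. The table holds 3135 loci named NewGene among its 25171.

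Counts were tested with edgeR 4.0.16 in R 4.3.3 (filterByExpr, TMM, quasi-likelihood fit, Benjamini-Hochberg over all genes tested), each pair of groups alone and the difference between the lines in all 12 hearts; a gene was called at an adjusted p below 0.05. The fit was tested on simulated counts with 200 genes changed. Alternatives were DESeq2 1.42.0, limma 3.58.1 on log2(FPKM + 1) or log2(FPKM + 0.1) after a minimum of 0.5 FPKM in 3 hearts or with no filter, RLE size factors, no count filter, a minimum of 1 CPM in 3 hearts, no mitochondrial genes, the study threshold, 1 fit of all hearts, a replicate block, and leaving out each heart. Values in every heart were given for called members and for the 2 members of each class with the highest mean FPKM. Of each pathway and marker list, the called gene with the lowest adjusted p and those with the largest fold change, up to 3 a comparison, were named. The members and lists were chosen with earlier results of these data known. Gene positions, exons and sequences came from the GENCODE annotation and genome of GRCm38, where all 44 members had a transcript.

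Replicate numbers come from the sample titles. In the Myh6 groups, deviations from the group means of same-numbered hearts correlated across genes at 0.27, 0.212 and 0.229, so the numbers were taken to pair these hearts and blocked values are given where they change a call. Replicate 1 was also the only male heart of each group by its Y-linked counts, so sex and pairing cannot be told apart for it. The labels call replicates biological and do not say which hearts share a litter. Counting error is small for genes with many counts, but not for those near the floor, such as Col11a1 and Col22a1 in Myh6-ctl. The p-values set the difference between groups against the spread between hearts. As the floor of a heart, 3 counts were taken.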

Additional observations from a re-analysis of the deposited data

Results flagged for a closer look

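The change in Myh6-tg hearts and the change in EIIa-tg hearts differed, by the test of the difference itself in all 12 hearts (edgeR, adjusted over 15929 genes), for 7 collagens. The adjusted p was 0.00386 for Col11a1, 0.00418 for Col12a1, 0.00542 for Col4a2, 0.00947 for Col5a2, 0.0102 for Col6a6, 0.0153 for Col4a1 and 0.0442 for Col8a1. Col4a1 and Col4a2 were called lower in EIIa-tg and higher in Myh6-tg, but the EIIa-tg calls were lost in the fit of all 12 hearts and in 5 of the 6 fits that left out 1 heart.

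The same test flagged 8 named genes of the pathway and marker lists. For P3h1 (0.0228), Sparc (0.0135), Itgb1 (0.0153), Ltbp2 (0.00389), Cthrc1 (0.00862) and Comp (0.0263) the change was higher in Myh6-tg, and for Abcc9 (0.0189) and the macrophage gene Adgre1 (0.0289) it was lower, each value being an adjusted p. Comp rested on replicates 2 and 3 of Myh6-tg, at 219 and 419 CPM, since replicate 1 stood at 10.2 CPM. With the replicate block Comp (0.0657) and Adgre1 (0.0616) lost the call, and of the 12 fits that left out 1 heart Comp was called in 3, P3h1 in 5 and Adgre1 in 6. Age, Cre, tamoxifen and time since recombination differ between the lines and cannot be told apart. Groups of 3 hearts were not examined for single outlying values.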

How the results depend on the processing

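No direction of a called collagen or named list gene reversed under any alternative run. In EIIa-tg, where 2 collagens were called, DESeq2 called 8, and the study threshold, the replicate block, limma on log2(FPKM + 1) without a filter and the fit of all 12 hearts each called 0, which with edgeR compares with 15 at an unadjusted p below 0.05; leaving out 1 heart gave 0 to 5. In Myh6-tg, where 14 were called, the study threshold gave 8 and leaving out 1 heart 8 to 18. Between the control groups, where edgeR called 0 (2 at an unadjusted p below 0.05; DESeq2 0), leaving out 1 heart gave 0 to 1. For the difference between the lines, where 7 were called, the study threshold gave 4, DESeq2 14 and leaving out 1 heart 6 to 15. The causes were not tested. The other alternatives kept each count within 1.5 times.

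Over the single values, 902 of the collagens' alternatives stayed on the same side of the threshold, 51 gained a call and 63 lost one; of the named list genes' 706 stayed and 274 lost one. In the Myh6 groups, whose replicate numbers were taken to pair the hearts, the replicate block added Col14a1 (adjusted p = 0.0451) and changed no other collagen call. In the difference it added Col22a1 (0.0144), giving 8 collagens. The main fits held no block and so did not use this pairing, which the labels do not give. In the EIIa groups the same-numbered correlations were 0.124, -0.116 and -0.098, so the numbers were not taken to pair these hearts. The block left 1 gene called there and ended the calls of Col4a1 (adjusted p = 0.0776), Col4a2 (0.0888) and every named list gene (0.0631 to 0.104). Between the control groups they were 0.141, 0.065 and -0.082. Col11a1 and Col22a1 stood at or near the floor of 3 counts in Myh6-ctl hearts, so their fold changes depend on the depth.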
